A study of Mus musculus with 24 samples.

Results

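The regions described here lie in the deserts between genes. They are the autosomal regions of a deposited ATAC-seq count table that overlap no protein-coding gene body and whose nearest protein-coding gene end is more than 50 kb away. In the mm10 coordinates of the table, read against the RefSeq genes of GRCm38.p6, 921 of 13549 autosomal regions met this rule (6.80%), of 13910 regions in all. The rule uses position only, so no measured value chose the regions. For comparison, 1701 autosomal regions were intergenic and 1 to 50 kb from a gene end, 3529 lay inside a gene and over 1 kb from its ends, and 7398 lay within 1 kb of a gene end.

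ATAC-seq marks open chromatin by the insertion of adapters by the transposase Tn5. Open chromatin far from genes mostly consists of distal enhancers, insulator sites and promoters of noncoding RNAs, and enhancers can act on genes a long way off. In blood formation, hematopoietic stem cells (HSC) give rise to multipotent progenitors (MPP), which are divided into MPP2, MPP3 and MPP4 with megakaryocyte and erythroid, myeloid and lymphoid bias. Distal elements are known to differ more between blood cell types than promoters do. The nearest gene is given below for orientation; whether a region acts on it was not measured.

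The study asked how the host marrow acts on donor cells. Marrow from wild-type (WT) CD45.1 mice was transplanted into young CD45.2 recipients that were either WT or IκB–, and all libraries are of WT CD45.1 donor cells recovered 13 to 15 weeks later from the femur and tibia. IκB proteins hold the transcription factor NF-κB inactive; the labels do not say which IκB gene was altered or how. From each recipient type, HSC, MPP2, MPP3 and MPP4 were sorted at 500 to 1500 cells per sample, 3 libraries each, giving 24 libraries in 8 groups. The protocol describes the HSC gate as negative for CD150 and CD48, and the group is used under its label; the age of the recipients, the pooling of animals and any sequencing batch are not given, so p-values measure the spread between these samples, which may be partly technical.

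The libraries were shallow. Total counts ran from 121599 to 963699 per library, of which 6985 to 35243 fell in the far intergenic regions, and a typical far intergenic region had 9 counts in a library (median). A single count was worth 1.04 to 8.22 counts in a library total scaled to 1000000, so a level under 3 counts, which is 3.11 to 24.7 on that scale depending on the library, was not distinguishable from 0; these limits cover counting error only. Levels are given below as CPM, counts scaled to 1000000 of the library total after that total is adjusted by edgeR's TMM factor. Counts of WT MPP3 replicates 2 and 3 differed by no more than sampling noise would give (p 0.348 by a chi-square test over 13126 regions), so the pair was summed and treated as 1 sample, leaving 23 samples. IκB– HSC replicate 3 stood apart, with 74.0% of its non-mitochondrial counts at gene ends (61.9% to 71.9% in the other libraries). Open chromatin near Kit, Cd34 and Flt3, the surface genes of the sort with a counted gene end, was present in all libraries at 91.4 to 256 CPM summed, 1 of 8 T cell and 1 of 8 erythroid marker genes had a counted gene end, and no region was counted at the ends of the B cell, granulocyte and monocyte, or stromal and endothelial marker genes checked.

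Sequences were read where a far intergenic region coincided with an annotated start. Such starts belonged to noncoding genes: 60 promoter windows of 55 genes in the RefSeq table of GRCm38.p6 overlapped 54 of the 921 regions. Each window spans 250 bases before to 50 bases after a start. The windows of the regions that results below turn on are shown 5′ to 3′ on the gene's strand, with matches to the motif letters given afterwards in capitals. The first belongs to the region 64 kb from Lmo2 that was lower in IκB– recipients (chr2:103893810-103894109, plus strand), the second to a region 317 kb upstream of Zeb2 that was lower in MPP3 than in HSC (chr2:45434146-45434445, minus strand), and the last to a region 145 kb beyond Msrb3 with the smallest p among regions higher in IκB– MPP3, though it was not called (chr10:120636058-120636357, minus strand).
Gm39895: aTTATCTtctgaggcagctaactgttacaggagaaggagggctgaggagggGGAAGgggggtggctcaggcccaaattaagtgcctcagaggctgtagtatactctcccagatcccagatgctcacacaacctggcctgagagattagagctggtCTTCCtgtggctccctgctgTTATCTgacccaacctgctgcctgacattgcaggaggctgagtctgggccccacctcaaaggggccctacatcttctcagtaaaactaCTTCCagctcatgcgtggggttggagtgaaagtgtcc
Gm30728: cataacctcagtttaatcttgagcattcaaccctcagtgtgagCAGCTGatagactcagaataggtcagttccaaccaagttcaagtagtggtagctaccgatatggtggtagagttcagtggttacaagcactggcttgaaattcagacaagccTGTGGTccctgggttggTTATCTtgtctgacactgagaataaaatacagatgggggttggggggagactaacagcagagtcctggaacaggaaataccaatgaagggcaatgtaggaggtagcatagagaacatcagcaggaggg
4930471E19Rik: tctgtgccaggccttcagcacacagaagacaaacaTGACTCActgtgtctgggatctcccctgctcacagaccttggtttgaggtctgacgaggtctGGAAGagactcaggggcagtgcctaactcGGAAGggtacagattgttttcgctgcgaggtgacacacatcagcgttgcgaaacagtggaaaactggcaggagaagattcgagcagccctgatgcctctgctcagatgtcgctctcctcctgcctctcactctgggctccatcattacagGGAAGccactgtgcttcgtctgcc

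The motifs were searched on both strands as fixed letters for factor families of blood cells. The ETS core GGAAG occurred in 78.3% of the 60 windows (71.4% of all 32851 promoters and 69.6% of 11588 lncRNA promoters of the same length). The RUNX letters TGTGGT occurred in 33.3% (16.8% and 20.05%), the longer ETS form GAGGAAGT of PU.1, which contains the core, in 8.33% (3.202% and 3.33%), and the AP-1 letters TGACTCA in 10% (5.20% and 6.20%). Shares were 11.7% for the GATA letters AGATAA, against 11.2% and 14.0%. The E-box letters, which read CAGCTG, occurred in 21.7% of windows, against 16.3% and 17.7%. The NF-κB letters GGANTTTCC were in 0 of the 60 windows, against 1.25% of all promoters. The CTCF core letters CAGGGGGC were in 1.67%, against 2.87% of all and 1.66% of lncRNA promoters. The CEBP letters TTGCGCAA were in 0 of the 60 windows, against 0.183% of all promoters. Windows of 1 gene overlap each other, a match is no evidence of binding, and these shares carry no test. CpG islands were less common than over all promoters, with an observed over expected CpG ratio above 0.6 in 16.7% of the 60 windows (35.8% of all and 14.0% of lncRNA promoters).

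The far intergenic regions were narrow, weak and widely scattered. They had a median width of 282 bp (130 to 3091 bp) against 403 bp at gene ends, and a median level of 31.6 CPM against 66.3 CPM at gene ends and 34.0 CPM in the nearer intergenic regions. The distance to the nearest gene end had a median of 117 kb, with quartiles of 74587 and 210425 bp. The 921 regions had 639 different nearest genes and lay on all 19 autosomes, with 16 to 86 each. Of them, 272 (29.5%) overlapped the body of a gene of another type, 238 of these a lncRNA gene, and 7 overlapped a V segment.

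The farthest regions differed in level. They lay 1811846 bp from G6pd2 (chr5:59996741-59996997, 23.1 ± 17.0 CPM, SD over 23 samples), 1632732 bp from Pabpc4l (chr3:48080721-48080986, 21.4 ± 12.5 CPM) and 1411478 bp from Cntnap5b (chr1:101902077-101902589, 84.2 ± 38.7 CPM). Just inside the 50 kb limit were regions 50014 bp from Gcnt1 (16.0 ± 8.27 CPM) and 50104 bp from Tfap2a (19.7 ± 13.7 CPM). Just outside were regions 49845 bp from Hk2 (18.4 ± 16.2 CPM) and 49857 bp from D16Ertd472e (37.3 ± 16.4 CPM).

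A handful of regions held much of the signal. The 10 highest took 27.0% of the counts of all 921, and between 15.3% and 45.8% in single libraries. The widest and highest was chr17:39843139-39846230, 104 kb from Esp38, at 6668 ± 2561 CPM (3194 to 12662 CPM over 23 samples), the highest level of any autosomal region. The second, chr17:39847523-39848755, at 3256 ± 1423 CPM, overlapped Rn18s-rs5, a relative of the multicopy 18S ribosomal RNA genes, and AY036118. Reads of other copies could be counted there, so these levels are uncertain.

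The next highest stood in gene-poor stretches. A pair of regions over 1 Mb from Lrrc4c, chr2:98666242-98667392 and chr2:98662233-98662909, had 2475 and 1515 CPM, and chr14:19417650-19418417, 115 kb from Gm2244, had 405 CPM. The counts of these 3 regions hardly rose with library size. For example, chr2:98666242-98667392 had 730 counts in IκB– HSC replicate 1, of 156205 in all, and 635 in IκB– MPP3 replicate 1, of 963699. Their CPM therefore tended to fall as library size rose, and these levels are uncertain too. The biological coefficient of variation fitted by edgeR takes in this spread, and was 0.540, 0.570 and 0.723. Its median was 0.254 over the far intergenic regions tested and 0.181 at gene ends. None of the 5 highest regions was called in any comparison below, and each recipient difference in the share of counts is also given without the 10 highest.

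The share of autosomal counts in far intergenic regions was lower in MPP3 of IκB– recipients. In IκB– MPP3 it was 3.37%, 4.41% and 4.08%, and in WT MPP3 5.15% and 5.19%, so the groups did not overlap. The means were 3.95% ± 0.53 (SD, n = 3) and 5.17% ± 0.028 (n = 2), a difference of -1.22 percentage points, and -1.09 points without the 10 highest regions. No test was run on this share.

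In the other subsets the recipient groups overlapped. The share was 6.05% ± 2.28 in IκB– and 5.80% ± 0.931 in WT HSC, 5.78% ± 0.927 and 5.53% ± 0.293 in MPP2, and 5.78% ± 1.33 and 6.03% ± 1.81 in MPP4 (SD, n = 3 each). Without the 10 highest regions the differences were 0.0247 points in HSC (0.254 with them), 0.279 in MPP2 (0.257) and 0.012 in MPP4 (-0.251), so that in MPP4 the sign turned. With all regions, the difference in HSC was 1.52 points without IκB– HSC replicate 3, whose share of 3.51% was the lowest of all libraries after IκB– MPP3 replicate 1. The share within 1 kb of a gene end moved the other way: in MPP3 it was 70.3% ± 1.48 in IκB– and 67.7% ± 0.086 in WT recipients. The part of this in the results was not tested, beyond the covariate fits given below.

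**Figure D1:**
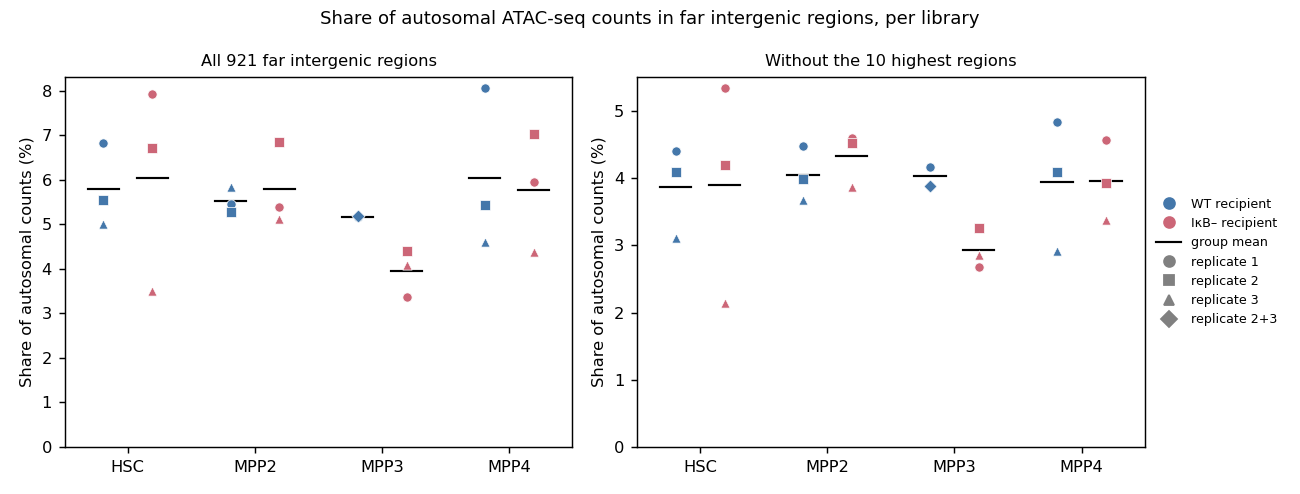
Share of autosomal counts (%) in far intergenic regions per library, over all 921 regions (left) and without the 10 highest (right), with WT (blue) and IκB– (red) recipients side by side for each subset; bars are group means. The 3 IκB– MPP3 samples lie below both WT MPP3 samples in both panels, and the groups overlap in HSC, MPP2 and MPP4.

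In MPP3 the recipient effect grew with distance from genes. The median log2 fold change of IκB– over WT MPP3 was 0.08 over regions within 1 kb of a gene end, -0.08 inside genes and -0.18 in intergenic regions up to 50 kb from a gene. In the far intergenic regions it was -0.41 at 50 to 100 kb (346 regions tested), -0.51 at 100 to 200 kb (273), -0.68 at 200 to 500 kb (170) and -1.08 beyond 500 kb (55). Of the 844 far intergenic regions tested, 676 had a fold change below 0 (80.1%, against 49.1% of all regions tested). These medians describe regions that share libraries, and no test was run on them.

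The order held in each fit that was run. From the nearer intergenic regions outward, the median fell at each step of distance in 37 of 37 fits, which include other scalings, other tools and each sample left out in turn. Fits that left out a sample of another subset kept the same MPP3 counts, so the 37 fits are not separate support. Beyond 500 kb the median ran from -1.22 to -0.80 when 1 sample was left out, highest without WT MPP3 replicate 1. With each library's share of counts at gene ends as a covariate, the medians were smaller, -0.20, -0.22, -0.34 and -0.62 in the 4 distance steps. In HSC, MPP2 and MPP4 the same medians lay between -0.09 and 0.15, and in all distance steps of HSC and MPP4, and beyond 200 kb in MPP2, their sign rested on single libraries. In HSC, leaving out IκB– HSC replicate 3 gave an HSC median of 0.36 beyond 500 kb, and leaving out replicate 1 of the same group gave -0.66. With 1 sample left out, the MPP2 median beyond 500 kb ran from -0.0089 (without IκB– MPP2 replicate 1) to 0.39 (without WT MPP2 replicate 1), and the MPP4 median at 200 to 500 kb from -0.36 (without IκB– MPP4 replicate 1) to 0.12 (without IκB– MPP4 replicate 3).

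Within bands of level, the order of the classes in MPP3 was the same in all 4 bands. Among regions at 20 to 40 CPM, the median log2 fold change was -0.61 over 479 far intergenic regions, -0.27 over 816 nearer intergenic regions, -0.14 over 1616 regions inside genes and 0.12 over 1479 at gene ends. Among those at 40 to 80 CPM, it was -0.51, -0.14, -0.08 and 0.10. Above 80 CPM, 53 of 60 far intergenic regions were below 0 (88.3%), against 1192 of 2890 at gene ends (41.2%).

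**Figure D2:**
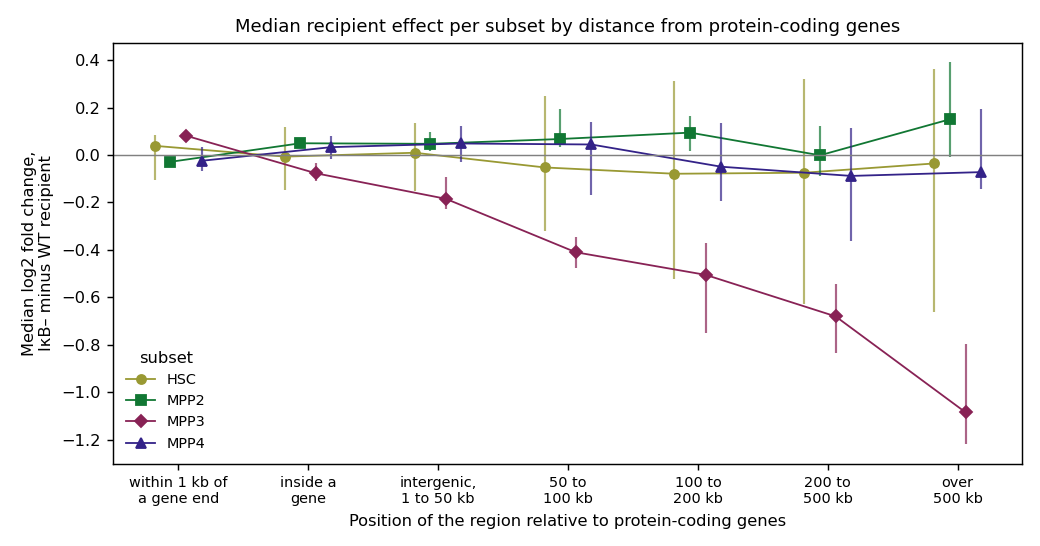
Median log2 fold change of IκB– over WT recipients per subset (y axis) for 7 classes of distance from protein-coding genes (x axis); vertical lines span the medians obtained with each of the 23 samples left out in turn. In MPP3 the median falls from 0.08 at gene ends to -1.08 beyond 500 kb, and the other 3 subsets stay near 0, with the widest lines in HSC.

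Single regions were then tested with edgeR's quasi-likelihood test over all 13325 regions that passed the count filter, and called at a Benjamini-Hochberg adjusted p under 0.05. Of the 921 far intergenic regions, 844 passed that filter and 77 did not. The recipient effect averaged over the 4 subsets called 41 of the 844 (4.86%), against 1.73% of all regions tested. Of these, 11 were higher in IκB– recipients (background 0.608%) and 30 lower (background 1.13%). By class, calls were made for 0.539% of regions at gene ends, 2.83% inside genes and 3.47% in nearer intergenic regions. The median log2 fold change over the 844 regions was -0.13, against -0.00213 over all tested. It rested partly on single libraries, at -0.035 without IκB– HSC replicate 3 and -0.24 without replicate 1 of that group.

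**Figure D3:**
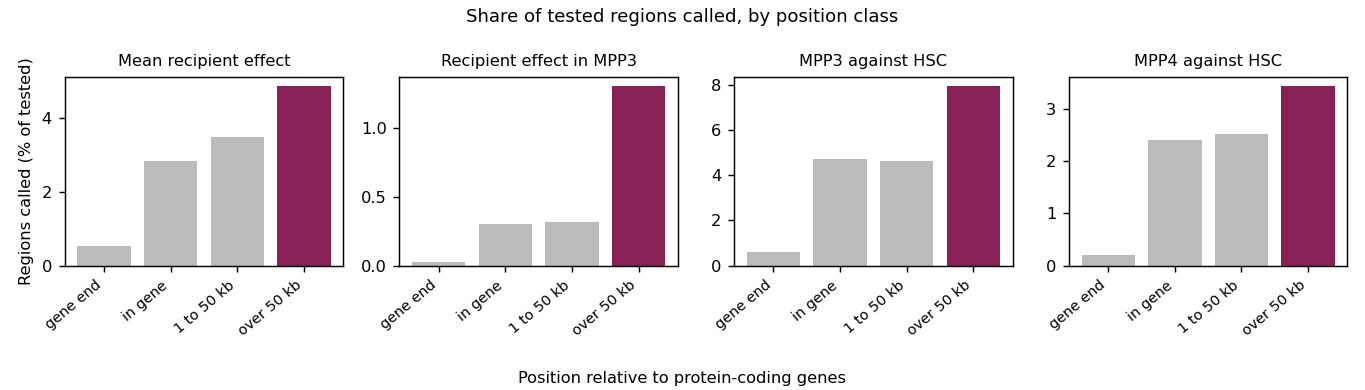
Share of tested regions called (%, y axis) by position relative to protein-coding genes (x axis) in 4 comparisons, each with its own scale; bars start at 0. Far intergenic regions (dark bars) have the highest share of calls in each panel, from 1.303% in the MPP3 recipient effect to 7.94% for MPP3 against HSC.

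Among the 30 lower regions, the one with the smallest p was chr1:95468144-95468493, 119 kb beyond St8sia4, which encodes a polysialyltransferase. It had 6.96, 21.8 and 38.5 CPM (lowest, median and highest) in 12 IκB– samples and 33.0, 48.2 and 79.2 CPM in 11 WT samples. Of the 12 IκB– samples, 11 lay below all WT samples, the exception being 1 MPP2 sample. The log2 fold change was -1.36 ± 0.23 (SE), edgeR adjusted p 0.0012.

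Kit encodes the receptor for stem cell factor and was part of the sort gate. The region 105 kb beyond it, chr5:75761992-75762276, had 5.36, 14.9 and 31.7 CPM in IκB– and 16.9, 37.8 and 70.9 CPM in WT samples. Levels in the 2 recipient types overlapped, with 7 of 12 IκB– samples below all WT samples. The log2 fold change was -1.23 ± 0.26, edgeR adjusted p 0.00982, and 0.0671 without WT MPP3 replicates 2 and 3. A second region 74 kb beyond Kit had a log2 fold change of -0.20 ± 0.21 (adjusted p 0.732).

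Lmo2 encodes a bridging cofactor of the blood stem cell transcription factors, and the region 64 kb from it is the Gm39895 start shown above (chr2:103893846-103894104). It had 0, 16.9 and 50.2 CPM in IκB– and 26.3, 42.6 and 60.0 CPM in WT samples, with 8 of 12 IκB– samples below all WT samples. The 3 IκB– MPP4 samples, at 13.5, 22.6 and 0 CPM, lay below the 3 WT MPP4 samples at 48.2, 37.8 and 51.9 CPM. In MPP2 the levels were alike, at 31.7, 36.3 and 50.2 against 31.6, 45.0 and 60.0 CPM. The log2 fold change averaged over subsets was -1.17 ± 0.27, edgeR adjusted p 0.0178, and 0.0594 without WT MPP3 replicates 2 and 3. A region 53 kb beyond Bcl11a, a repressor of fetal globin and regulator of lymphoid fate, also fell (-0.93 ± 0.23, edgeR adjusted p 0.0259), a call kept in 17 of 23 fits with 1 sample left out (adjusted p 0.0779 without WT MPP4 replicate 2). The regions 70 and 291 kb beyond Bcl11a were not called (-0.39 and -0.92, adjusted p 0.686 and 0.107).

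The lower region 363 kb from Rgs18 (chr1:145138891-145139303) had its largest fitted difference in MPP3 (-2.21, against -0.47, -0.42 and -0.83 in HSC, MPP2 and MPP4), without a call in the joint test of whether subsets differ. Rgs18 encodes a regulator of G protein signalling found in blood progenitors and platelets. Its levels were 11.4, 9.28 and 10.7 CPM in IκB– MPP3 and 45.0 and 56.1 CPM in WT MPP3, with no overlap. In HSC they were 109, 115 and 39.7 against 116, 132 and 88.6 CPM, which overlapped. The mean log2 fold change was -0.98 ± 0.18 (edgeR adjusted p 0.00274).

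The other leading lower regions were near genes of varied function. They lay 96 kb from Edil3, an integrin ligand (-1.75 ± 0.34), 472 kb upstream of Klhl1 (-1.19 ± 0.24), 71 kb beyond the kinase gene Stk35 (-1.16 ± 0.25) and 256 kb beyond Ccser2 (-1.27 ± 0.28). Another pair were 318 kb beyond Gm9195 (-1.09 ± 0.25) and 112 kb beyond Cand1, an exchange factor of cullin ubiquitin ligases (-0.96 ± 0.23). Their edgeR adjusted p-values lay between 0.00288 and 0.0218. In each of these 10 leading lower regions the fitted fold change was below 0 in all 4 subsets, and none changed sign in any alternative run. Calls were lost without some single samples near Stk35 (adjusted p up to 0.0536, without WT MPP3 replicates 2 and 3), Gm9195 (0.0972, without WT MPP4 replicate 2) and Cand1 (0.0568, without WT HSC replicate 2), as near Kit and Lmo2 above.

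Among the 11 higher regions, the one with the smallest p lay 67 kb from Zfp36l2, an RNA-binding protein that promotes mRNA decay in blood progenitors (chr17:84116356-84117050). It had 81.4, 136 and 267 CPM in IκB– and 48.7, 80.1 and 115 CPM in WT samples, and 9 of 12 IκB– samples lay above all WT samples. The log2 fold change was 0.90 ± 0.17, edgeR adjusted p 0.00274, and the call was kept in all 35 alternatives. The fold changes in HSC, MPP2, MPP3 and MPP4 were 0.99, 0.35, 0.88 and 1.38.

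The region 174 kb beyond Dusp6, which encodes a phosphatase of the kinase ERK (chr10:99441130-99441371), was the lone far intergenic region called in MPP4, where 0.045% of all regions were called and 0.0075% called higher. The IκB– MPP4 samples had 40.4, 52.7 and 54.9 CPM, and the WT MPP4 samples 6.89, 0 and 0 CPM, with no overlap. These are 40 counts against 1, a ratio of 31.4 with a 95% counting interval of 5.32 to 1271. The edgeR adjusted p in MPP4 was 0.0496, and 0.444 without WT MPP4 replicate 3. Averaged over the 4 subsets the log2 fold change was 1.95 ± 0.39 (adjusted p 0.00486).

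Calls at other higher regions were lost without single samples. Near Id2, an inhibitor of E protein transcription factors, a region 93 kb upstream changed by 1.05 ± 0.27 (edgeR adjusted p 0.0356, and 0.124 without IκB– HSC replicate 2). The regions 94 and 293 kb upstream of Id2 were not called (-0.13 and 0.76, adjusted p 0.870 and 0.345). Near Cebpb, a transcription factor of stress granulopoiesis, a region 63 kb beyond the gene changed by 0.85 ± 0.23 (adjusted p 0.0483, and 0.25 without IκB– HSC replicate 3). A second region 70 kb beyond Cebpb was not called (0.41 ± 0.25, edgeR adjusted p 0.492). Near Trib1, a pseudokinase that promotes decay of C/EBP proteins, a region 71 kb away changed by 1.07 ± 0.27 (adjusted p 0.0299, and 0.114 without IκB– HSC replicate 3).

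The remaining leading higher regions were 132 kb beyond Katnal1 (0.80 ± 0.19), 52 kb upstream of the uridylyltransferase gene Tut7 (1.13 ± 0.28) and 1149 kb upstream of the adhesion gene Alcam (1.296 ± 0.33). The last lay 50 kb from Kctd1 (1.53 ± 0.40) and 78 kb beyond Btc, an EGF family ligand (1.23 ± 0.34). Their edgeR adjusted p-values ran from 0.0245 to 0.0483, and each rose above 0.05 when at least 1 sample was left out.

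**Figure D4:**
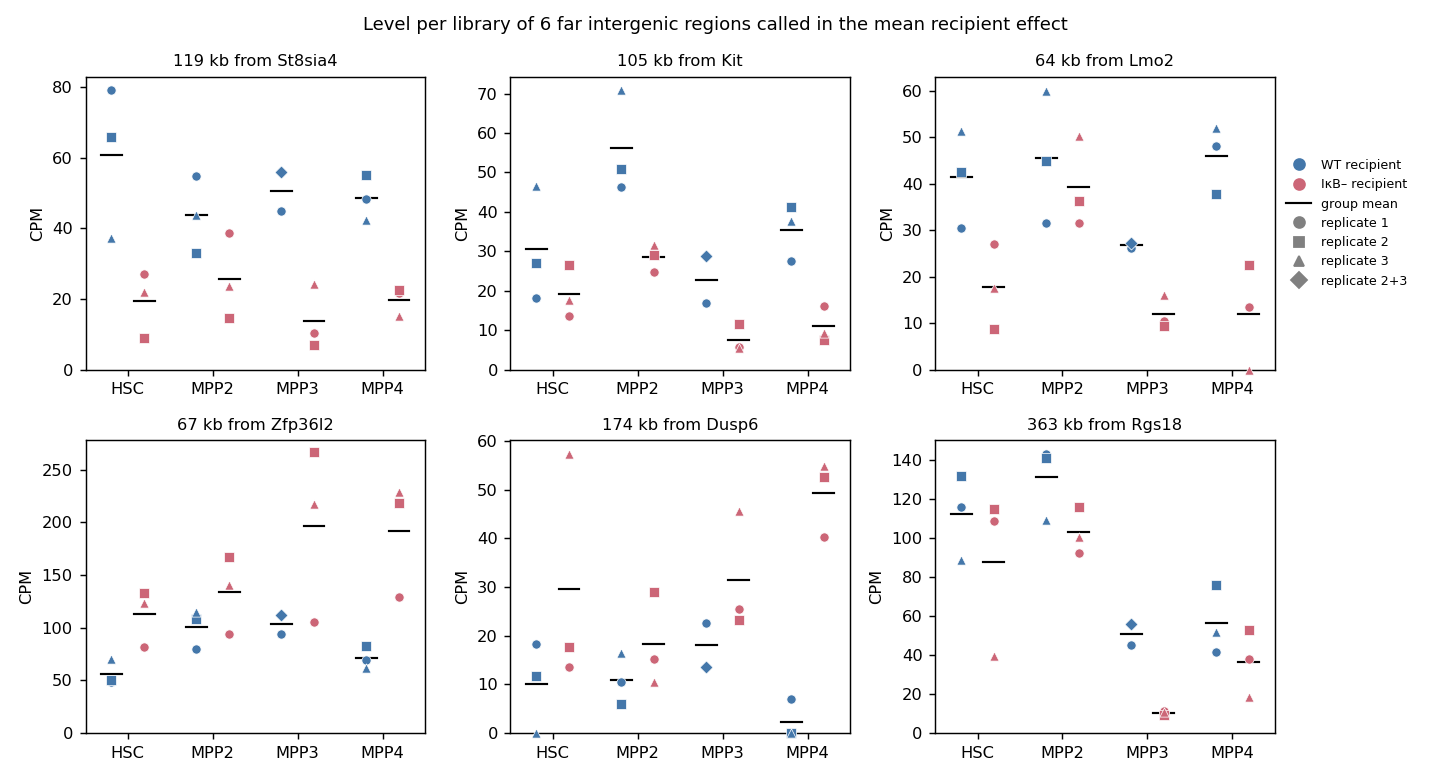
Level (CPM, y axis) in each sample of 6 far intergenic regions called in the recipient effect averaged over subsets, by subset (x axis) with WT in blue and IκB– in red; bars are group means and panel titles give the nearest protein-coding gene and its distance. The regions near St8sia4, Kit and Lmo2 are lower and those near Zfp36l2 and Dusp6 higher in IκB– recipients, and the region near Rgs18 is lowest in IκB– MPP3.

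How many of these calls were made depended on single samples. The 41 calls became 8 without WT MPP3 replicates 2 and 3, 11 without WT MPP4 replicate 2 or IκB– MPP4 replicate 3, 13 without WT HSC replicate 2, 15 without WT MPP2 replicate 2 and 21 without IκB– MPP3 replicate 3. They became 23 without IκB– MPP2 replicate 3, 24 without WT MPP3 replicate 1, 25 without IκB– HSC replicate 3, 27 without IκB– MPP2 replicate 2 and 82 without IκB– HSC replicate 1. Where WT MPP3 was left with 1 sample, that sample was assumed to vary like the other groups.

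Within MPP3, 11 far intergenic regions were called, all lower in IκB– recipients (1.303% of 844, against 0.203% of all regions called lower and 0.21% called in either direction). The smallest p belonged to chr6:109153705-109153970, 271 kb beyond Gm6749, with 1.89, 0 and 8.05 CPM in IκB– and 43.1 and 34.8 CPM in WT MPP3. No IκB– sample had more than 3 counts there (5 counts against 46 in all). The fitted log2 fold change was -3.66 ± 0.67 (edgeR adjusted p 0.00859), a size that depends on how so few counts are fitted.

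Another leading region, 520 kb beyond Stpg2 (chr3:140230779-140231148), had 9.47, 13.9 and 18.8 CPM in IκB– and 63.8 and 59.1 CPM in WT MPP3. It changed by -2.22 ± 0.42 (adjusted p 0.00859), while in the other subsets its fold changes were 0.10, 0.20 and 0.23. It had the smallest p of the joint test for recipient effects that differ between subsets, but that test called none of the 844 regions (adjusted p 0.82; 96 at an unadjusted p under 0.05, which is 11.4% against 4.05% of all regions, and 0 by DESeq2 or limma-voom).

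Besides these and the region near Rgs18, the regions near St8sia4, Edil3 and Ccser2 described above were lower in MPP3. The other 5 of the 11, listed for completeness and not chosen by the naming rule, lay 631 kb from Lcorl (-2.14 ± 0.41), 205 kb from Rbm26 (-2.21 ± 0.44), 107 kb from Dnajb6 (-2.04 ± 0.43), 820 kb from Tbc1d32 (-3.24 ± 0.68, with no IκB– MPP3 sample above 3 counts) and 156 kb from Gbe1 (-2.54 ± 0.57). The distance of the 11 regions had a median of 256 kb, against 117 kb over all 921. The call count was 0 without WT MPP3 replicate 1, without WT MPP3 replicates 2 and 3 or without IκB– MPP3 replicate 1. It was 7 without IκB– MPP3 replicate 3, 18 without IκB– MPP3 replicate 2, 23 without replicate 1 of IκB– HSC and 53 without replicate 3 of that group.

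No far intergenic region was called in HSC or MPP2 alone by edgeR, DESeq2 or limma-voom, and no region of any class was (background 0%). At an unadjusted p under 0.05 there were 57 in HSC (6.75% of the 844, against 6.23% of all regions) and 34 in MPP2 (4.03% against 3.65%) by edgeR, shares near the background. In HSC the smallest p was at the region near Cebpb, with 27.1, 44.2 and 137 CPM in IκB– and 18.3, 7.75 and 23.3 CPM in WT samples (2.27 ± 0.57, adjusted p 0.658). In MPP2 it was at a region 147 kb from Skor2 (chr18:76699475-76699710), with 74.3, 87.1 and 60.8 against 18.97, 24 and 38.2 CPM (1.52 ± 0.44, adjusted p 0.9996). In both cases all 3 IκB– samples lay above all 3 WT samples, without passing the test. On simulated data, the fit called 8% of regions changed 2-fold within HSC and 5.5% of those within MPP2. For MPP4 this share was 6%, while for MPP3 it reached 21%. Of 4-fold changes, it called 69% for HSC, 80% for MPP2, 70% for MPP4 and 85% for MPP3. The lack of calls for HSC and MPP2 therefore cannot show that 2-fold changes were absent there, or that these subsets differ from MPP3.

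In MPP2 the smallest p for a lower region was 174 kb upstream of Arhgap42 (-2.17 ± 0.66, edgeR adjusted p 0.9996). In MPP3 the smallest p for a higher region was at the 4930471E19Rik start shown above (chr10:120636140-120636432). It had 20.8, 62.6 and 24.1 CPM in IκB– and 7.50 and 6.06 CPM in WT MPP3, with no overlap (2.30 ± 0.75, adjusted p 0.201). In MPP2 the 3 WT samples had 0 counts there, and the IκB– samples 4.13, 21.8 and 18.5 CPM. Averaged over subsets it missed the threshold (adjusted p 0.0572). In MPP4 the smallest p for a lower region was near Stk35 (-1.996 ± 0.53, adjusted p 0.302).

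Between sorted subsets, taken over both recipient types, far intergenic regions had more calls for MPP3 against HSC than for the other 2 comparisons against HSC; MPP subsets were not compared with each other. Of the 844, 67 were called (7.94%, against 2.58% of all regions), 58 lower in MPP3 (background 1.95%) and 9 higher (background 0.63%). With total counts as the scaling, which moved the median of all regions from -0.02 to 0.12, 50 were lower and 24 higher. With the covariate for counts at gene ends, 51 were lower and 27 higher. The count became 31 without IκB– HSC replicate 1, 42 without WT MPP3 replicate 1 or without WT MPP3 replicates 2 and 3, 43 without WT HSC replicate 2 and 150 without IκB– HSC replicate 3.

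The region 492 kb upstream of Nr5a2, a nuclear receptor gene, was low in MPP3 (chr1:137452886-137453117). In MPP3 it had 7.50 and 6.06 CPM in WT and 2.84, 2.32 and 2.68 CPM in IκB– recipients. In HSC it had 48.7, 46.5 and 37.3 CPM in WT and 109, 17.7 and 13.2 CPM in IκB– recipients, so the subsets did not overlap. The log2 fold change was -3.27 ± 0.49 (edgeR adjusted p 0.000107). MPP2 samples, at 27.5 to 54.8 CPM, lay within the range of HSC.

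A similar picture was seen 113 kb upstream of Rprm, a cell cycle arrest gene (chr2:54198450-54198650). It had 0, 2.32 and 7.57 CPM (lowest, median and highest) in 5 MPP3 samples and 8.81, 42.3 and 74.6 CPM in 6 HSC samples, with no overlap (-3.68 ± 0.58, adjusted p 0.000169). The 5 MPP3 samples held 10 counts in all here and 13 near Nr5a2, with at most 5 and 4 in a sample, so both fitted sizes depend on few counts. Its MPP2 samples had 7.26 to 21.1 CPM and overlapped both. The region near Rgs18 was also lower in MPP3 than in HSC (-2.01 ± 0.27, adjusted p 2.09e-05), as was one 259 kb beyond Pdha2 (chr3:140950344-140950672; -1.92 ± 0.31, adjusted p 0.000216). IκB– HSC replicate 3 had the lowest of the 6 HSC levels near Nr5a2, Rprm and Rgs18, and the next to lowest near Pdha2; all 4 calls held without it.

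A pair of the lower regions lay upstream of Zeb2, a transcription factor needed for blood cell differentiation. The one at the Gm30728 start shown above had 13.1 and 12.1 CPM in WT and 9.47, 18.6 and 8.05 CPM in IκB– MPP3, against 42.6, 46.5 and 28.0 CPM in WT and 47.5, 79.6 and 26.4 CPM in IκB– HSC. The subsets did not overlap (-1.80 ± 0.36, edgeR adjusted p 0.00211), and MPP2 was highest of the 4 subsets at 58.0 to 94.8 CPM. The other, 54 kb upstream of Zeb2, changed by -1.84 ± 0.35 (adjusted p 0.00123). The regions 162 and 1254 kb upstream of Zeb2 had values of 0.47 and 0.15 and were not called. Neither of the lower pair was chosen by the naming rule; they are given because Zeb2 is a listed regulator and the first has a sequence.

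The 9 regions higher in MPP3 were led by one 104 kb beyond Gm9376, in the body of 1700044C05Rik (chr14:118371344-118371755). It had 34.8, 49.99 and 88.5 CPM in 5 MPP3 samples and 6.09, 19.5 and 57.3 CPM in 6 HSC samples, with overlap (1.48 ± 0.34, adjusted p 0.00886). Others lay 77 kb beyond the Wnt pathway gene Cxxc4 (2.70 ± 0.69), near Tut7 (1.59 ± 0.42) and 55 kb upstream of the Polycomb-related gene Sfmbt2 (1.02 ± 0.27), with edgeR adjusted p-values of 0.0203, 0.0241 and 0.0299. All 4 calls were lost without some single samples, with adjusted p up to 0.0556 near Gm9376 and 0.105 near Cxxc4 (both without WT MPP3 replicate 1), 0.115 near Tut7 (without WT HSC replicate 2) and 0.0826 near Sfmbt2 (without WT MPP3 replicates 2 and 3). Near Cxxc4 no HSC sample had more than 2 counts, and the fitted size there depends on few counts.

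MPP4 against HSC gave 29 calls among the 844 (3.44%, against 1.22% of all regions). These split into 15 higher in MPP4 (background 0.788%) and 14 lower (background 0.435%). The count was 10 without IκB– MPP4 replicate 1, 13 without IκB– MPP4 replicate 3, 14 without WT HSC replicate 2, 15 without WT MPP4 replicate 1 and 62 without IκB– HSC replicate 3 (15 higher, 47 lower). Without IκB– HSC replicate 1 the count was 28, but 25 were higher and 3 lower. With the same covariate 23 were higher and 42 lower, so the balance of directions was not stable.

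Among regions higher in MPP4, the one 138 kb beyond Suclg2, a mitochondrial enzyme gene (chr6:95334838-95335218), had 47.2, 74.5 and 143 CPM in 6 MPP4 samples and 4.41, 16.3 and 44.2 CPM in 6 HSC samples, with no overlap (2.13 ± 0.42, edgeR adjusted p 0.00437). The one 174 kb from Slc30a8, a zinc transporter gene (chr15:52510257-52510457), had 14.2, 32.6 and 68.9 against 0, 2.20 and 12.2 CPM, also with no overlap (3.202 ± 0.68, adjusted p 0.0102). No HSC sample had more than 2 counts there (5 in all, against 54 in MPP4), so each HSC level was not distinguishable from 0 and the fitted size depends on few counts. The regions near Gm9376 (1.88 ± 0.35) and 220 kb beyond Mreg (1.77 ± 0.38) were higher too, with adjusted p-values of 0.00279 and 0.0117.

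The leading lower regions in MPP4 were those near Pdha2 (-1.81 ± 0.34), 888 kb from Snx16 (-2.47 ± 0.49), near Nr5a2 (-2.71 ± 0.54) and 110 kb upstream of 4933402D24Rik (-2.37 ± 0.51). Their edgeR adjusted p-values were 0.00279, 0.00473, 0.0049 and 0.0124. Without IκB– HSC replicate 1 the calls near Nr5a2 (adjusted p 0.0998) and 4933402D24Rik (0.0729) were lost, and without IκB– MPP4 replicate 1 the one near Slc30a8 (0.0572). With limma-voom the calls near Snx16 (0.107), 4933402D24Rik (0.13), Gm9376 (0.0548) and Mreg (0.0569) were lost. The HSC samples are shared by all comparisons against HSC. The region near Pdha2 had 13.5, 20.4 and 48.2 CPM in 6 MPP4 samples and 37.3, 82.2 and 115 CPM in 6 HSC samples, and MPP2, at 76.6 to 137 CPM, was not below HSC.

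**Figure D5:**
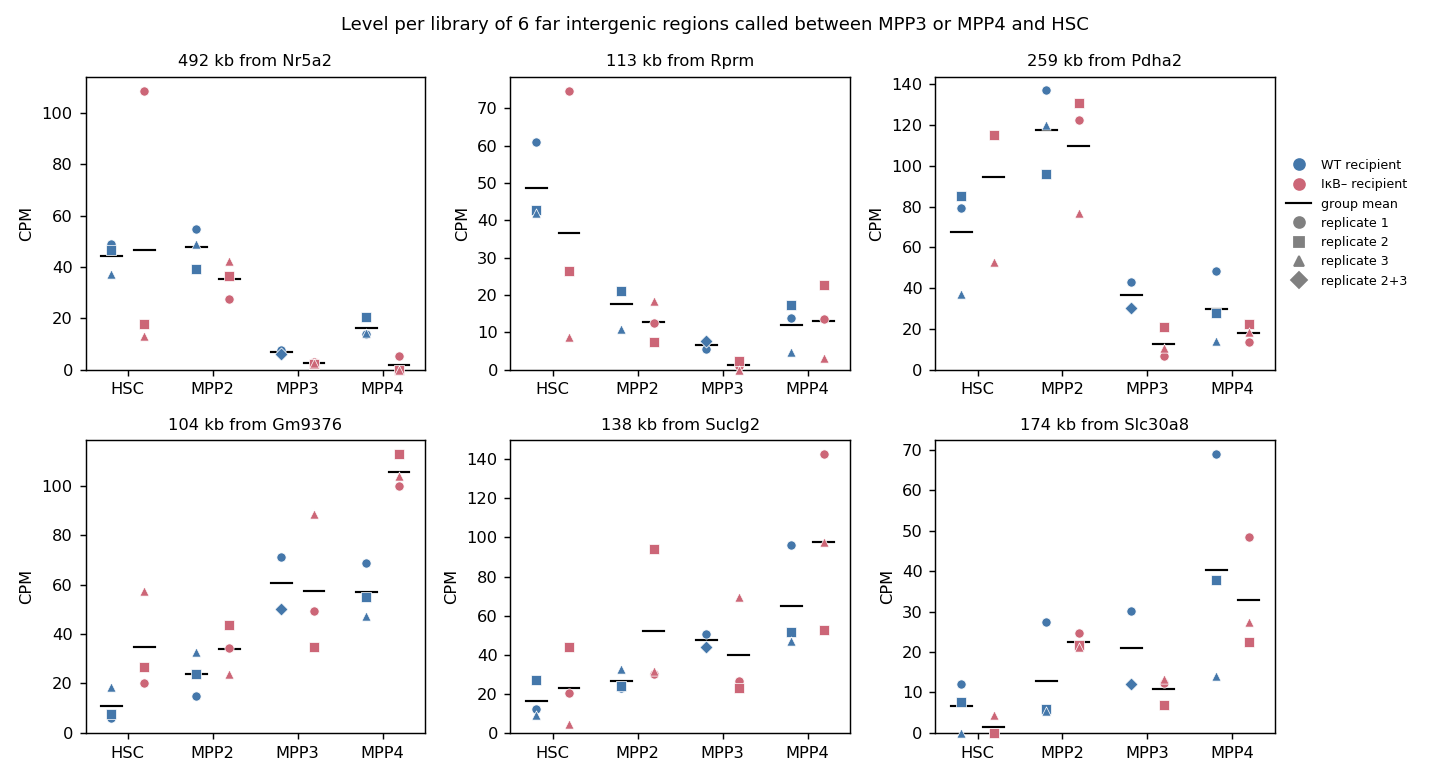
Level (CPM, y axis) in each sample of 6 far intergenic regions called between MPP3 or MPP4 and HSC, by subset (x axis) with WT in blue and IκB– in red; bars are group means and panel titles give the nearest protein-coding gene and its distance. The regions near Nr5a2, Rprm and Pdha2 are lowest in MPP3 and MPP4, and those near Gm9376, Suclg2 and Slc30a8 are lowest in HSC, on average over both recipient types.

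MPP2 against HSC called no far intergenic region by edgeR, DESeq2 or limma-voom, against 0.03% of all regions by edgeR. At an unadjusted p under 0.05 there were 102, 12.1% of the 844 against 8.32% of all regions. The smallest p was 65 kb upstream of Lgalsl (chr11:20896508-20896828), with 43.6, 63.3 and 72.6 CPM in 6 MPP2 samples and 15.5, 21.2 and 32.6 CPM in 6 HSC samples. All MPP2 samples lay above all HSC samples, but the adjusted p was 0.0963 (1.40 ± 0.31). Among lower regions the smallest p was 1284 kb upstream of Adgrl3 (-1.19 ± 0.37, adjusted p 0.375).

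Around blood regulators as a list, the far intergenic regions were divided. Of 99 listed regulators of blood stem and progenitor cells, 25 were the nearest gene of at least 1 far intergenic region, with 46 regions in all and 43 tested. In the averaged recipient effect 3 were higher (near Zfp36l2, Id2 and Cebpb) and 3 lower (near Kit, Lmo2 and Bcl11a), 6 of 43 where 1.73% of all regions and 4.86% of the far intergenic regions were called. The median log2 fold change over the 43 was -0.08, against -0.13 over the far intergenic regions tested and -0.00213 over all regions tested. For MPP3 against HSC 4 were lower, near Zeb2 (both above), Bcl11a and Gata3, and 1 higher, near Cebpb, 5 of 43 where 2.58% of all regions and 7.94% of the far intergenic regions were called. The list was chosen with earlier results known, and nothing particular to it is read from these counts. Of 14 genes for NF-κB subunits and inhibitors, 2 were the nearest gene of a far intergenic region, Tnfaip3 at 79 kb and Nfkbiz at 113 kb, and neither region had enough counts to be tested.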

How the data were processed

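The values are raw counts per region, deposited by the authors as 1 table of 13910 regions by 24 libraries. The submitters' processing notes name Bowtie2, SAMtools, Picard, MACS2 2.1.0, deepTools and the build mm10, without roles. The counting tool, duplicate filter and transposase offset are not given in the sources used here, and no genome sequence was used.

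Genes came from RefSeq (GRCm38.p6). Counts were fitted with edgeR 4.0.16 (TMM scaling, filterByExpr, robust quasi-likelihood test, 8 group means, 15 residual degrees of freedom) in R 4.3.3, with Benjamini-Hochberg adjustment over all 13325 regions tested; fold changes are log2 with SE. CPM are counts scaled to 1000000 of the TMM-adjusted library total. Alternatives used DESeq2 1.42.0, limma 3.58.1 and other scalings, filters and samples. The fit was tested on simulated data, with the recovery in single subsets given above. Of regions changed 2-fold in all subsets, 77.5% were called in the averaged effect. Regions named are those with the smallest p in each comparison and direction (10 called in the mean recipient effect, 3 in each subset, 4 between subsets, or 1 where none was called) and in the joint test, the extremes of level, width and distance, and up to 6 near listed regulators; others are marked in the text. Sequences are RefSeq promoter windows that overlap a region. The regions and lists were chosen with earlier results of these data known. A region that this rule names is not reported here.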

Additional observations from a re-analysis of the deposited data

Results flagged for a closer look

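At 2 of the far intergenic regions named, the recipient groups did not overlap in 2 subsets and differed in opposite directions. The share of all regions that do so was not counted, and groups of 2 or 3 unpaired samples can separate by sampling alone. Near Lgalsl the gap in MPP2 was only 63.4 against 63.2 CPM. At the region 65 kb upstream of Lgalsl, the log2 fold change of IκB– over WT was 0.265 in MPP2, where IκB– samples had 66.1, 72.6 and 63.4 CPM and WT samples 63.2, 54.0 and 43.6 CPM, and -0.481 in MPP4, with 32.3, 30.1 and 27.5 against 48.2, 37.8 and 42.5 CPM. At the region 147 kb from Skor2, it was 1.52 in MPP2 and -0.968 in MPP3, with 27.5, 27.8 and 18.8 CPM in IκB– and 58.2 and 42.4 CPM in WT MPP3. The difference between these pairs of subsets was not tested by itself. The joint test over all 4 subsets gave edgeR adjusted p-values of 0.999 for both regions, and none of the 4 effects passed the threshold alone.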

How the results depend on the processing

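The depth was low, with a median of 9 counts per far intergenic region and library, and the number of calls varied with the processing. Calls in the averaged recipient effect (41) were 27 with DESeq2, 64 with each library's share of counts at gene ends as a covariate and 24 over regions beyond 100 kb; with 1 sample left out they ran from 8 to 82. In MPP3 (11) they were 6 with DESeq2, 45 with limma-voom, 27 with 24 libraries kept apart and 2 with only the 2 groups compared, and ran from 0 to 53. In MPP4 (1) they were 0 with median-of-ratios factors, total counts, scaling on gene-end regions, cyclic loess, DESeq2, limma-voom or only the 2 groups compared, and ran from 0 to 1. For MPP2 against HSC (0) they were 1 with total counts and 5 with the covariate, and ran from 0 to 3. For MPP3 against HSC (67) they ran from 31 to 150. For MPP4 against HSC (29) they were 6 with limma-voom and 65 with the covariate, and ran from 10 to 62. The covariate fit was chosen after seeing the data, and the cause of these shifts was not tested. Calls in HSC, MPP2 and the joint test stayed at 0 in the fits without a block.

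With the replicate number as a block, calls were 73 in the averaged effect, 108 in MPP3, 2 in MPP4, 5 in the joint test (the region near Stpg2 among those called, adjusted p 0.0349), 7 for MPP2, 144 for MPP3 and 70 for MPP4 against HSC. The labels do not say what the numbers share. Same-numbered samples had correlations of deviations from -0.052 to 0.396, with 51 of 84 over 0.1, and all 24 libraries correlated best with their own number, a hint from the data and not the design. The share of counts differed in MPP3 by -1.52 to -0.911 points under 5 alternatives and by -1.45 to -0.928 with 1 sample left out; in HSC, MPP2 and MPP4 leaving out 1 sample gave -0.685 to 1.52, -0.272 to 0.589 and -0.970 to 0.769 points.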

Other observations

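Some of the regions called for MPP3 against HSC lay in the same stretch of a chromosome, which was noticed after their values were seen. Of the 67, 13 had another called far intergenic region within 1 Mb. The same held for 7 of 29 regions called for MPP4 against HSC and 6 of 41 in the averaged recipient effect. It held for 0 of 11 called for the recipient effect in MPP3. The share within 1 Mb to be had from any like number of regions was not counted, so no clustering is read from this. On chromosome 3, 3 lower regions lay between the genes Stpg2 and Pdha2, at 134 kb from Stpg2 (-1.60) and at 471 kb (-2.17) and 259 kb (-1.92) from Pdha2. On chromosome 1, the called regions upstream of Nr5a2, at 188 kb (-2.73) and 492 kb (-3.27), were lower, and those beyond Mreg, at 184 kb (2.16) and 220 kb (1.36), were higher in MPP3. On chromosome 2, the called regions 54 and 317 kb upstream of Zeb2 were lower, as were those near Gm38481 (-1.45) and Rprm (-3.68), while a region near Gata3 (-1.63) and one near Sfmbt2 (1.02) within 1 Mb of each other went opposite ways. Over all pairs of adjacent far intergenic regions tested that lay within 100 kb of each other, called or not, 110 of 201 had the same sign for MPP3 against HSC (54.7%). For scale, 55.8% of the 844 far intergenic regions tested were below 0 in that comparison. Over all 921 far intergenic regions, 397 had another within 100 kb and 108 within 10 kb. On the X chromosome, 15 regions met the same distance rule and are not described here.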
